A study of Homo sapiens with 4 samples.

Results

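The genes described here are 36 that encode subunits and factors of RNA polymerase I and nucleolar proteins that process ribosomal RNA and assemble ribosomal subunits. They were chosen by symbol, with earlier results of these data known, and matched to Ensembl identifiers. All 36 were found among the 20348 genes of the deposited table. Their expression was measured by sequencing of poly-A RNA in 2 established human leukemia lines, K562 (chronic myeloid leukemia) and THP-1 (acute monocytic leukemia). Each line was cultured with 100 nM periplocin, a cardiac glycoside from Cortex Periplocae, or with DMSO for 72 h. DMSO is the solvent and served as the control, although the sample titles call the controls blank. Dose and time were taken from the study's methods, since the labels do not give them. There was 1 library per condition and 4 in all, which the study describes as a single biological replicate.

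Ribosome production begins in the nucleolus, where RNA polymerase I (Pol I) transcribes the ribosomal RNA genes into a long precursor. Small nucleolar RNAs bound to proteins (snoRNPs) guide its modification, and large sets of assembly factors fold and cut it into the small and the large ribosomal subunit. Rapidly dividing cells depend on this pathway, and MYC is a well-known activator of many of its genes. Poly-A sequencing measures the messenger RNAs of the proteins and not the ribosomal RNA itself.

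Stretches from 6 of the promoters are shown because these genes stand at both ends of the responses described below or hold one of 2 motifs that were searched. The promoter sequences are from RefSeq on GRCh38.p14 and cover the 250 bases before each gene's start, and 29 of the 36 genes had an entry. For 23 of the 29, bases just after that start were found near the opening of a GENCODE transcript of the gene. The printed stretches exclude every base that lies in an exon in GENCODE release 29. In the following 4, CpG dinucleotides are in capitals.
POLR1B chr2:112541825-112541914 (+): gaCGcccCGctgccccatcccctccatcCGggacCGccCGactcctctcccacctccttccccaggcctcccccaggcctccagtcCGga
RRP9 chr3:51941942-51942031 (-): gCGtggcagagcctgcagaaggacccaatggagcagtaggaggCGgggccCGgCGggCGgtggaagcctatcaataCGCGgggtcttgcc
FBL chr19:39846415-39846504 (-): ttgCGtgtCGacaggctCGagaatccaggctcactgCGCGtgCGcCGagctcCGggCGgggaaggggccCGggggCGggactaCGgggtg
LYAR chr4:4290170-4290250 (-): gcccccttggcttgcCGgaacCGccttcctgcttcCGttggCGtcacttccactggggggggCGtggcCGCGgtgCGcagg
The next stretch has in capitals a match to CCGGAAGT, the core bound by many ETS factors, and the last a match to CACGTG, the E-box bound by MYC with MAX.
DDX21 chr10:68956086-68956127 (+): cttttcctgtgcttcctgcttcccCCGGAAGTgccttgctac
UTP20 chr12:101280071-101280104 (+): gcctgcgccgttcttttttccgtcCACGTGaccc
CpG dinucleotides numbered 20 per promoter in the median of the 29 genes, against 21 in the promoters of 10732 genes with at least 1 CPM (the count of a gene scaled to a common library total) and 11 in all 27305 promoters of the table. CACGTG, which reads the same on both strands, was found in 1 of the 29 promoters (3.45%), that of UTP20, against 8.84% of promoters of the genes with at least 1 CPM and 6.49% of all promoters. CCGGAAGT or its reverse complement ACTTCCGG was found in 2 of 29 (6.90%), DDX21 and POLR1C, against 7.04% and 3.64%. Neither motif can overlap the other, and a match is a string of letters in this window and was not tested as a site. UTP20, the gene with the E-box letters, had log2 ratios of periplocin to DMSO of -0.50 in K562 and -0.96 in THP-1. The rest of the 36 genes, including those with no promoter entry, had medians of -0.15 and -0.89.

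Library totals lay between 16381149 and 20622694 counts, and the 36 genes had between 87 and 23316 counts in a library. In each comparison all 36 averaged 1 CPM or more, so none was lost to the filter on low counts. Mitochondrially encoded genes took 5.62% of the counts without and 2.07% with periplocin in K562, and 5.24% without and 3.92% with it in THP-1. The lines carried the markers of their labels, with all 8 erythroid markers at least 2-fold lower and all 8 monocytic markers at least 2-fold higher in THP-1 DMSO than in K562 DMSO. MPO, a monocytic marker, was at 0 counts in both K562 libraries, and HBG2 was at 0 in THP-1 periplocin. In K562 all 8 erythroid markers were higher in periplocin than in DMSO, by log2 ratios of 0.84 to 2.22, and their summed level was 2043 CPM in DMSO and 7863 in periplocin. Their summed level in THP-1 was 10.4 CPM in DMSO and 7.79 in periplocin, and that of the monocytic markers was 92.1 CPM without and 88.2 with periplocin in K562, and 736 without and 928 with it in THP-1. The monocytic markers went both ways, with 4 lower and 4 higher in THP-1, from -1.36 (MPO) to 1.45 (FCGR1A), and with CD33 at -1.53 and ITGAM at 1.15 in K562. The part of these shifts in the results below was not tested.

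In the DMSO libraries the 36 genes were expressed at levels that differed by less than 2-fold between the lines for all but 4. With THP-1 DMSO set against K562 DMSO, 22 were lower (background: 49.0% of all 12845 genes compared were lower) and 14 were higher, with a median log2 ratio of -0.15 against 0.02 for all genes. FBL, DDX21 and BYSL were lower by at least 2-fold, against a background of 21.1%, and NCL was higher by at least 2-fold, against a background of 22.7%. FBL had a log2 ratio of -1.13 (-1.21 to -1.05), DDX21 -1.28 (-1.32 to -1.23), BYSL -1.20 (-1.36 to -1.03) and NCL 1.55 (1.51 to 1.59), where the range in brackets, here and below, is the 95% interval for counting error. Per kilobase of transcript, NPM1 was the highest of the 36 in each library, at 366 CPM per kb in K562 DMSO and 643 in THP-1 DMSO. FBL stood second in K562 DMSO at 194 CPM per kb, and NCL stood second in THP-1 DMSO at 221. The lowest were RRP12 in K562 DMSO at 7.46 and UTP20 in THP-1 DMSO at 4.92.

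**Figure D1:**
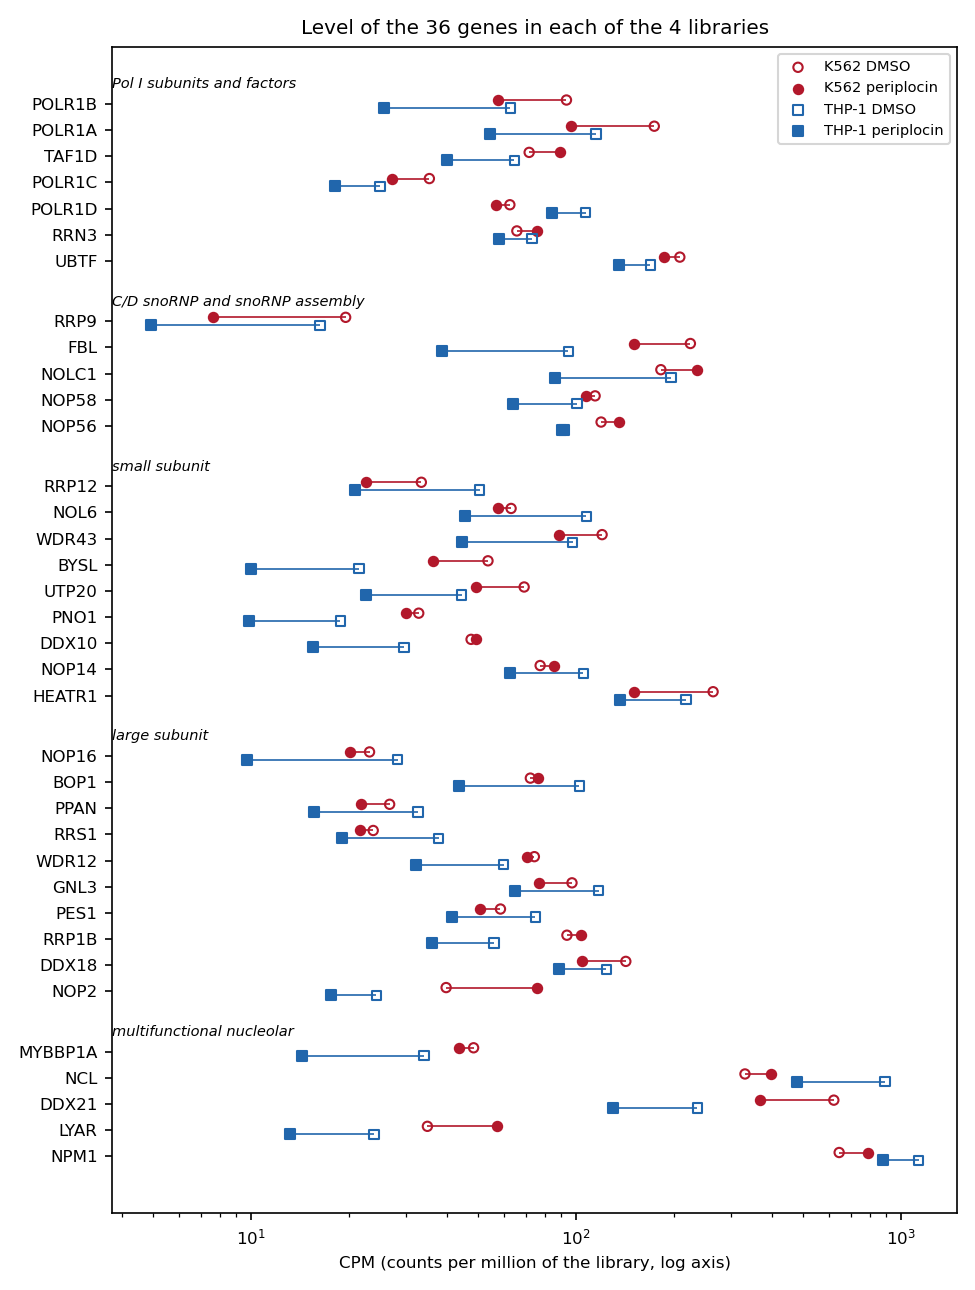
Level of each of the 36 genes in CPM (log axis) in the 4 libraries, with K562 as red circles and THP-1 as blue squares, DMSO open and periplocin filled, joined by a line within each cell line and grouped by role. In THP-1 the filled square lies left of the open one for 35 genes, all but NOP56, while in K562 the filled circle lies left of the open one for 24 and right of it for 12.

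The question of the main comparisons is how periplocin changed the transcriptome of each line. With periplocin set against DMSO, 35 of the 36 genes were lower in THP-1 (background: 51.5% of all 12341 genes) and 24 of 36 (66.7%) in K562 (background: 50.8% of all 11862 genes). The median log2 ratio was -0.89 in THP-1 and -0.15 in K562, against -0.02 and -0.01 for all genes. In THP-1, 28 genes (77.8%) were lower by at least 1.5-fold, against a background of 21.2%, and 13 (36.1%) by at least 2-fold, against 10.4%. None of the 36 was higher by at least 1.5-fold in THP-1, where the background was 17.2%. In K562, 6 genes (16.7%) were lower by at least 1.5-fold, beside a background of 22.0%, and 1 (2.78%), RRP9, by at least 2-fold, beside 11.5%. Both shares in K562 were below the background. NOP2 and LYAR were higher by at least 1.5-fold in K562, where the background was 19.0%. With 1 library per condition there is no spread between replicates, so these values compare libraries and not conditions, and a lower share of a messenger RNA in the library cannot be told apart from a change in total RNA per cell or in the mix of cells.

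**Figure D2:**
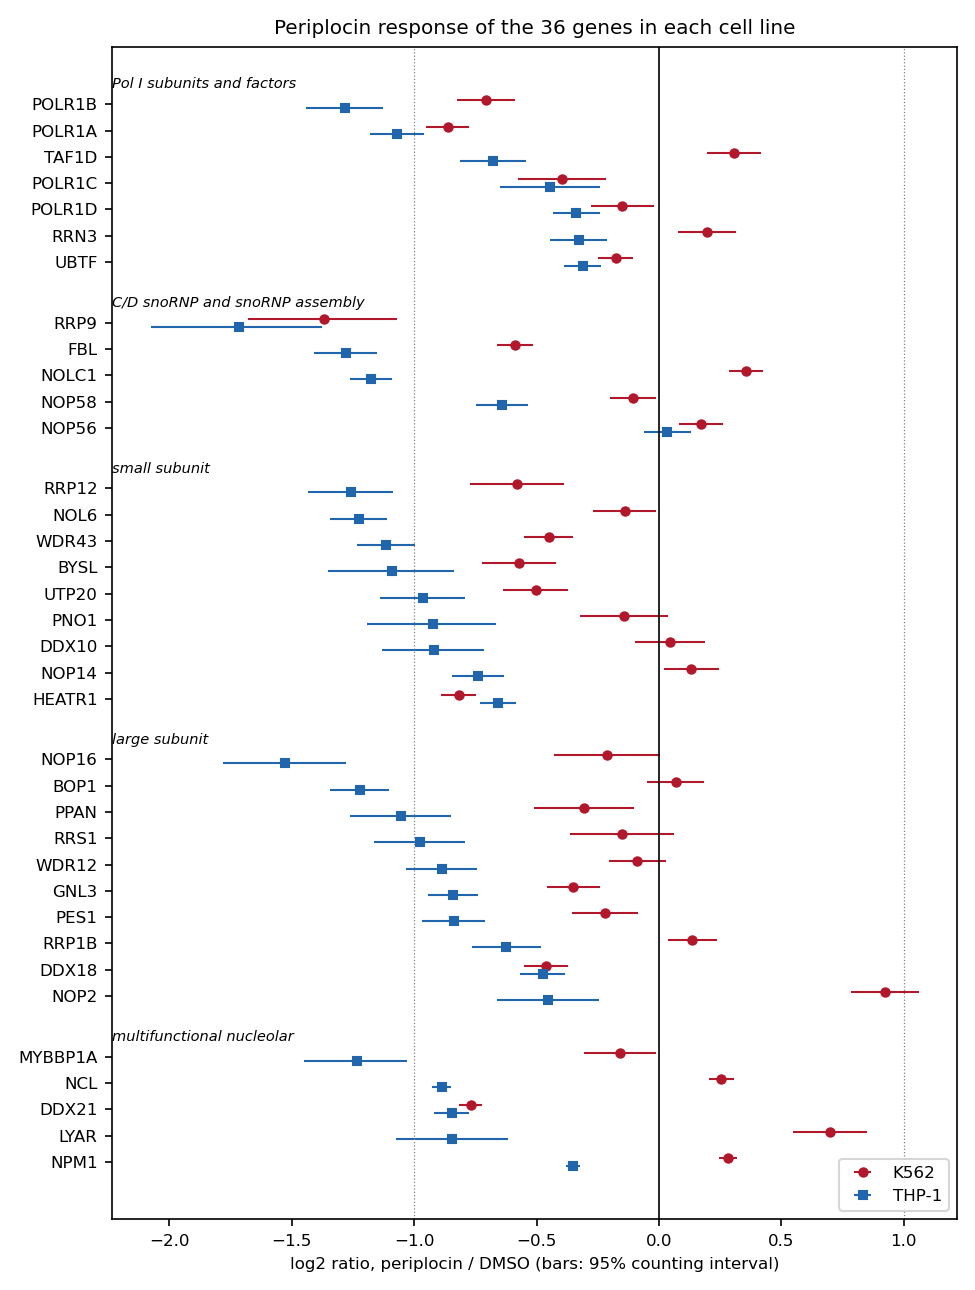
Log2 ratio of periplocin to DMSO for each of the 36 genes in K562 (red circles) and THP-1 (blue squares), with bars for the 95% interval of counting error and dotted lines at 2-fold. In THP-1 the points run from -1.71 (RRP9) to 0.03 (NOP56), and in K562 from -1.37 (RRP9) to 0.92 (NOP2).

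Both large subunits of Pol I were lower with periplocin in both lines. POLR1A (ENSG00000068654, chromosome 2 from 86020216 to 86106155 on the minus strand of GRCh38), the largest subunit, had 174 CPM without and 96.3 with periplocin in K562, and 115 without and 54.4 with it in THP-1. It was 1.82-fold lower in K562, with a log2 ratio of -0.86 (-0.95 to -0.77), and 2.10-fold lower in THP-1, with -1.07 (-1.18 to -0.96). POLR1B, which forms the catalytic center together with POLR1A, had 93.3 CPM without and 57.7 with periplocin in K562, and 62.7 without and 25.6 with it in THP-1. Its log2 ratio was -0.71 (-0.82 to -0.59) in K562 and -1.28 (-1.44 to -1.13) in THP-1, so each periplocin library lay below the DMSO library of its line, and the interval of the difference between lines was below 0. POLR1C and POLR1D, which Pol I shares with RNA polymerase III, differed less. POLR1C had 35.3 CPM without and 27.1 with periplocin in K562, and 24.9 without and 18.2 with it in THP-1, with log2 ratios of -0.40 (-0.58 to -0.22) and -0.44 (-0.65 to -0.24). POLR1D had 62.5 CPM without and 56.8 with periplocin in K562, and 107 without and 84 with it in THP-1, with log2 ratios of -0.15 (-0.28 to -0.02) and -0.34 (-0.43 to -0.24). Both were lower in each line by less than 1.5-fold, and POLR1D was higher in THP-1 than in K562 in both media.

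The promoter factors of Pol I differed less than its large subunits. UBTF, the architectural factor that occupies the ribosomal RNA genes, had 208 CPM without and 186 with periplocin in K562, and 169 without and 135 with it in THP-1. Its log2 ratio was -0.18 (-0.25 to -0.11) in K562 and -0.31 (-0.39 to -0.24) in THP-1, the latter among the 3 nearest to no change in that line. RRN3, which links the polymerase to its promoter complex, had 65.7 CPM without and 75.8 with periplocin in K562, and 73.1 without and 57.7 with it in THP-1. Here the lines went opposite ways, with a log2 ratio of 0.20 (0.08 to 0.31) in K562 and -0.33 (-0.44 to -0.21) in THP-1. TAF1D, a subunit of the promoter selectivity factor SL1, had 71.7 CPM without and 89.2 with periplocin in K562, and 64.5 without and 40.01 with it in THP-1. It too was higher in K562 periplocin, at 0.31 (0.19 to 0.42), and lower in THP-1 periplocin, at -0.68 (-0.81 to -0.54). Over these 7 Pol I genes, 5 were lower and 2 higher in K562 with a median of -0.18, and 7 were lower in THP-1 with a median of -0.44.

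The box C/D snoRNP genes held both the largest and the smallest response in THP-1. RRP9, a protein of the U3 snoRNP that starts the cutting of the precursor, lies on the same build (ENSG00000114767, chromosome 3 from 51933430 to 51941941 on the minus strand). It had 320 counts without and 126 with periplocin in K562, and 336 without and 87 with it in THP-1, which is 19.5 CPM without and 7.61 with periplocin in K562, and 16.3 without and 4.91 with it in THP-1. It was 2.58-fold lower in K562, with a log2 ratio of -1.37 (-1.68 to -1.07), and 3.28-fold lower in THP-1, with -1.71 (-2.08 to -1.37), the lowest of the 36 ratios in each line. FBL, the methyltransferase fibrillarin, had 225 CPM without and 151 with periplocin in K562, and 94.6 without and 38.7 with it in THP-1. Its log2 ratio was -0.59 (-0.66 to -0.51) in K562 and -1.28 (-1.41 to -1.15) in THP-1, so that the THP-1 periplocin library held the least FBL of the 4. NOLC1, a chaperone of snoRNPs, had 182 CPM without and 235 with periplocin in K562, and 196 without and 86 with it in THP-1. It was higher in K562 periplocin, at 0.36 (0.29 to 0.43), and 2.26-fold lower in THP-1 periplocin, at -1.18 (-1.26 to -1.09). NOP58 and NOP56 form the core of the particle with FBL. NOP58 had 114 CPM without and 107 with periplocin in K562, and 101 without and 64 with it in THP-1, with log2 ratios of -0.10 (-0.20 to -0.01) and -0.64 (-0.75 to -0.53). NOP56 had 119 CPM without and 135 with periplocin in K562, and 90.3 without and 91.7 with it in THP-1, and its log2 ratio of 0.03 (-0.06 to 0.13) in THP-1 was the nearest to no change among the 36 in that line, beside 0.17 (0.08 to 0.26) in K562. It was the only one of the 36 with a ratio above 0 in both lines, in THP-1 within counting error. The medians of these 5 genes were -0.10 in K562 and -1.18 in THP-1.

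All 9 small subunit genes were lower by at least 1.5-fold in THP-1, 4 of them by at least 2-fold, while in K562 7 of 9 were lower and 1, HEATR1, by at least 1.5-fold. Their medians were -0.96 in THP-1 and -0.45 in K562. RRP12, a factor for export of the maturing subunit, had 33.4 CPM without and 22.5 with periplocin in K562, and 50.5 without and 20.9 with it in THP-1, with log2 ratios of -0.58 (-0.77 to -0.39) and -1.26 (-1.43 to -1.09). NOL6, of the small subunit processome, had 63.1 CPM without and 57.7 with periplocin in K562, and 107 without and 45.5 with it in THP-1. It differed little in K562, at -0.14 (-0.27 to -0.01), and was 2.34-fold lower in THP-1, at -1.23 (-1.34 to -1.11). WDR43, a processome protein of the UTP-A complex, had 120.1 CPM without and 88.5 with periplocin in K562, and 97.6 without and 44.7 with it in THP-1, with log2 ratios of -0.45 (-0.55 to -0.35) and -1.11 (-1.24 to -0.995). BYSL, which acts late in small subunit maturation, had 53.5 CPM without and 36.3 with periplocin in K562, and 21.5 without and 9.99 with it in THP-1, with log2 ratios of -0.57 (-0.72 to -0.42) and -1.09 (-1.35 to -0.84). These 4 were the small subunit genes past 2-fold in THP-1.

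HEATR1, another UTP-A protein, stood apart from the other small subunit genes in its order between the lines. It had 264 CPM without and 151 with periplocin in K562, and 217 without and 137 with it in THP-1. Its log2 ratio was -0.82 (-0.89 to -0.75) in K562 and -0.66 (-0.73 to -0.59) in THP-1, and it was the only one of the 36 whose ratio was lower in K562 than in THP-1 by more than counting error. UTP20, a processome scaffold, had 69.2 CPM without and 49.2 with periplocin in K562, and 44.4 without and 22.6 with it in THP-1, with log2 ratios of -0.50 (-0.64 to -0.37) and -0.96 (-1.14 to -0.79). PNO1, which stays on the maturing small subunit, had log2 ratios of -0.14 (-0.32 to 0.03) and -0.92 (-1.19 to -0.66), and NOP14, a processome protein, of 0.13 (0.02 to 0.24) and -0.74 (-0.85 to -0.63). DDX10, a nucleolar RNA helicase, had 47.5 CPM without and 49.3 with periplocin in K562, and 29.5 without and 15.5 with it in THP-1. At 0.04 (-0.10 to 0.19) it was the nearest to no change in K562, whereas in THP-1 it was 1.89-fold lower, at -0.92 (-1.13 to -0.71).

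Large subunit genes were all lower in THP-1, 8 of 10 by at least 1.5-fold, and in K562 7 were lower, none by 1.5-fold. NOP16 (ENSG00000048162, chromosome 5 from 176383938 to 176388975 on the minus strand) had 23.1 CPM without and 20.1 with periplocin in K562, and 28.2 without and 9.71 with it in THP-1. Its log2 ratio was -1.53 (-1.78 to -1.28) in THP-1, second in size to that of RRP9, and -0.21 (-0.43 to 0.003) in K562. BOP1, PES1 and WDR12 form the PeBoW complex, which is needed for maturation of the large subunit RNA. BOP1 had 72.3 CPM without and 76.3 with periplocin in K562, and 102 without and 43.5 with it in THP-1, and was within counting error of no change in K562, at 0.07 (-0.05 to 0.18), but 2.33-fold lower in THP-1, at -1.22 (-1.34 to -1.10). PES1 had 58.5 CPM in DMSO and 50.6 in periplocin in K562, with a log2 ratio of -0.22 (-0.35 to -0.08), and 74.8 CPM in DMSO and 41.5 in periplocin in THP-1, with -0.84 (-0.97 to -0.71). WDR12 had 74.4 CPM without and 70.5 with periplocin in K562, and 59.9 without and 32.1 with it in THP-1, with log2 ratios of -0.09 (-0.21 to 0.03) and -0.89 (-1.03 to -0.74). All 3 subunits were thus lower in THP-1 with periplocin, and 1 of the 3, PES1, was lower in K562 by more than counting error.

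PPAN, a large subunit assembly factor, had 26.7 CPM without and 21.7 with periplocin in K562, and 32.6 without and 15.6 with it in THP-1. It was 2.07-fold lower in THP-1, at -1.05 (-1.26 to -0.85), and 1.24-fold lower in K562, at -0.31 (-0.51 to -0.10). RRS1, which helps bring the 5S particle into the large subunit, had log2 ratios of -0.15 (-0.36 to 0.06) and -0.98 (-1.17 to -0.79), and GNL3 (nucleostemin), a nucleolar GTPase, of -0.35 (-0.46 to -0.24) and -0.84 (-0.94 to -0.74). DDX18, an RNA helicase, had 142 CPM without and 104 with periplocin in K562, and 124 without and 88.5 with it in THP-1. Its ratios of -0.46 (-0.55 to -0.37) in K562 and -0.47 (-0.57 to -0.38) in THP-1 differed by -0.01 (-0.14 to 0.12), the smallest difference between the lines among the 36. NOP2 (ENSG00000111641, chromosome 12 from 6556863 to 6568691 on the minus strand), which methylates the large subunit RNA, had 39.8 CPM without and 76 with periplocin in K562, and 24.3 without and 17.6 with it in THP-1. It was 1.89-fold higher in K562 periplocin, at 0.92 (0.78 to 1.06), the largest ratio above 0 of the 36, and lower in THP-1 periplocin, at -0.45 (-0.66 to -0.25). RRP1B went the same opposite ways at smaller size, with 0.14 (0.04 to 0.24) and -0.62 (-0.77 to -0.48). The medians of the large subunit genes were -0.18 in K562 and -0.86 in THP-1.

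Nucleolar proteins with several roles included the most abundant of the 36. NPM1, a histone and assembly chaperone, had 644 CPM without and 788 with periplocin in K562, and 1131 without and 879.7 with it in THP-1. It was higher in K562 periplocin, with a log2 ratio of 0.28 (0.24 to 0.32), and lower in THP-1 periplocin, with -0.35 (-0.38 to -0.32). NCL (nucleolin), which binds the precursor, had 331 CPM without and 397 with periplocin in K562, and 891 without and 477 with it in THP-1, with log2 ratios of 0.25 (0.20 to 0.31) and -0.89 (-0.93 to -0.85). THP-1 thus held more NPM1 and NCL than K562 in either medium, by a smaller margin after periplocin. DDX21, a helicase found in both Pol I and Pol II transcription, had 620.2 CPM without and 367 with periplocin in K562, and 236 without and 129.9 with it in THP-1. Its ratios were -0.77 (-0.82 to -0.72) and -0.85 (-0.92 to -0.78), within counting error of each other, with a difference of -0.08 (-0.16 to 0.01). MYBBP1A, a nucleolar binding partner of transcription factors, had 48.3 CPM without and 43.6 with periplocin in K562, and 34 without and 14.3 with it in THP-1. It was 2.35-fold lower in THP-1, at -1.23 (-1.45 to -1.03), and 1.12-fold lower in K562, at -0.16 (-0.31 to -0.01). LYAR (ENSG00000145220, chromosome 4 from 4267701 to 4290169 on the minus strand), a nucleolar zinc finger protein, had 34.9 CPM without and 56.9 with periplocin in K562, and 23.9 without and 13.2 with it in THP-1. It was 1.62-fold higher in K562 periplocin, at 0.70 (0.55 to 0.85), and 1.79-fold lower in THP-1 periplocin, at -0.84 (-1.08 to -0.62). The medians of these 5 genes were 0.25 in K562 and -0.85 in THP-1.

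Summed over the 36 genes, the share of the library was 0.446% without and 0.407% with periplocin in K562, and 0.478% without and 0.295% with it in THP-1. After TMM scaling the summed log2 ratio was -0.14 in K562 and -0.68 in THP-1. NPM1 and NCL carried much of the sum, and without them the shares were 0.349%, 0.288%, 0.276% and 0.159%, with summed log2 ratios of -0.29 and -0.78. The summed level was therefore lowest in THP-1 periplocin with or without this pair.

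The responses of the lines differed by more than counting error for most of the 36. The difference of the log2 ratios was taken as THP-1 minus K562. Its 95% counting interval lay below 0 for 31 genes, above 0 for 1 (HEATR1) and spanned 0 for 4 (POLR1C, RRP9, DDX21 and DDX18). These counts were not made over all genes, so they have no background here. The median difference was -0.67, against -0.04 for all genes. The largest differences were in LYAR, at -1.54 (-1.81 to -1.27), and NOLC1, at -1.53 (-1.64 to -1.42). In 24 of 36 genes the ratio was below 0 in both lines, a pattern found in 32.1% of the 10779 genes that could be compared in both. With 35 of the 36 lower in THP-1, this count and that of opposite ratios below follow almost wholly from the K562 counts. DDX21, FBL, HEATR1, POLR1A, POLR1B and RRP9 were lower by at least 1.5-fold in both lines, as were 8.10% of those genes, and RRP9 by at least 2-fold in both, as were 2.70%. These 6 were all of the genes past 1.5-fold lower in K562, and a further 22 passed it in THP-1. In 11 genes the ratio was above 0 in K562 and below 0 in THP-1, a pattern found in 19.5% of the 10779 genes. The 11 were RRN3, TAF1D, NOLC1, NOP14, DDX10, NOP2, BOP1, RRP1B, NCL, NPM1 and LYAR. For 9 of them, all but DDX10 and BOP1, both intervals excluded 0. No replicate allows a test of these differences.

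**Figure D3:**
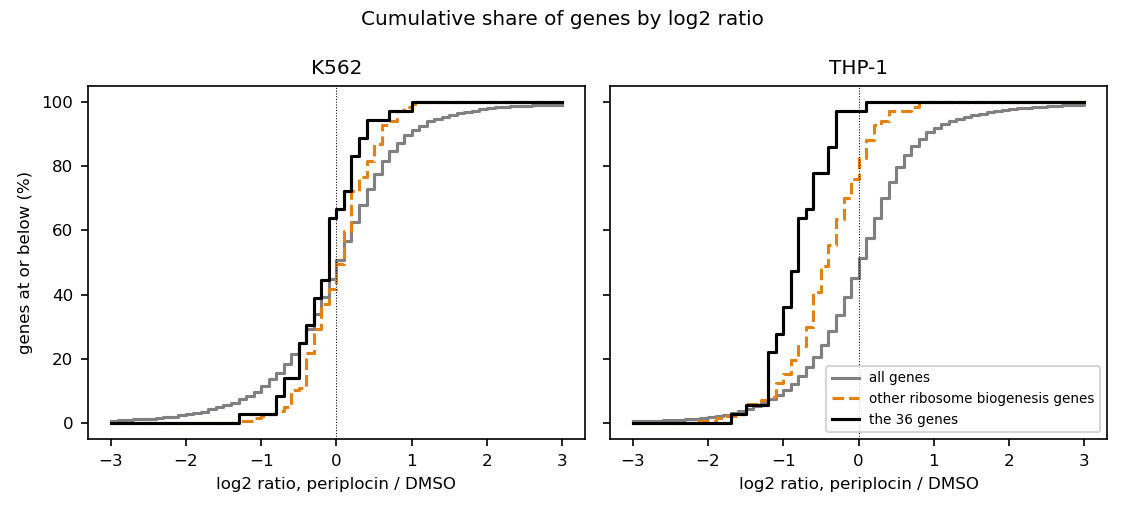
Cumulative share of genes (vertical axis, percent) at or below each log2 ratio of periplocin to DMSO (horizontal axis) in K562 (left) and THP-1 (right), for the 36 genes (black), 137 other ribosome biogenesis genes (orange, dashed) and all genes that averaged 1 CPM or more (grey). In THP-1 the black curve lies left of the grey one for ratios above -1, and in K562 the black curve stands at 66.7% at a ratio of 0, where the grey one stands at 50.8%.

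All 4 libraries were also fitted together, with terms for line and treatment, so that the spread comes from how far the lines disagree, with 1 residual degree of freedom. By edgeR's quasi-likelihood test with Benjamini-Hochberg adjustment, none of the 36 genes had an adjusted p under 0.05, nor did any of the 13584 genes tested (0%), and the smallest adjusted p among the 36 was 0.376. At an unadjusted p under 0.05 there were 8 of the 36 (22.2%), namely DDX21, FBL, HEATR1, POLR1A, POLR1B, RRP12, RRP9 and WDR43, all lower in periplocin, against a background of 5.68% of all genes that were lower at that p. Over all genes and both directions, 1535 had an unadjusted p under 0.05. DESeq2 gave an adjusted p under 0.05 to 0 of the 36, with a smallest value of 0.174, and to 125 of 11740 genes. By DESeq2, 7 of the 36 had an unadjusted p under 0.05, a count not made over all genes. Without a filter on low counts, edgeR called 0 of the 36 and 1 of 17191 genes.

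Further genes of the pathway numbered 137, in lists written from general knowledge but also with earlier results of these data known. They were mostly lower in THP-1, with a median nearer to 0 than that of the 36, and split evenly in K562. In THP-1, 113 of the 137 were lower, with a median log2 ratio of -0.46, 58 (42.3%) by at least 1.5-fold, against the background of 21.2%, and 21 (15.3%) by at least 2-fold, against 10.4%. In K562, 68 were lower and 69 higher, with a median of 0.01. The small subunit processome list had 33 of 38 genes lower in THP-1, with a median of -0.51, and 19 of 38 in K562, with a median of 0.03. PWP2, a processome protein of the UTP-B complex, had 48.9 CPM in DMSO and 44 in periplocin in K562 and 36 CPM in DMSO and 9.42 in periplocin in THP-1, with log2 ratios of -0.16 (-0.31 to -0.02) and -1.92 (-2.17 to -1.68). RCL1, which acts in early cutting of the precursor, had 29.7 CPM without and 63.1 with periplocin in K562, and 29.1 without and 12 with it in THP-1, and was higher in K562 periplocin, at 1.08 (0.92 to 1.24), and lower in THP-1 periplocin, at -1.26 (-1.50 to -1.04). The late small subunit list had 7 of 10 genes lower in THP-1, with a median of -0.62, and 6 of 10 in K562, with a median of -0.21. Its lowest ratios in THP-1 were those of NOB1, the endonuclease of the final cut, at -1.54 (-1.69 to -1.39), and TSR1, a maturation factor, at -1.39 (-1.59 to -1.19).

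The large subunit list had 45 of 48 genes lower in THP-1, with a median of -0.55 and 10 past 2-fold, and 26 of 48 in K562, with a median of -0.03 and 3 past 2-fold. NLE1, which takes part in remodelling of the large subunit precursor, had 37.2 CPM without and 17.3 with periplocin in K562, and 26.5 without and 5.53 with it in THP-1, with log2 ratios of -1.11 (-1.32 to -0.91) and -2.25 (-2.58 to -1.94). NOP53 had the lowest ratio of this list in K562, at -1.33 (-1.41 to -1.26), beside -0.83 (-0.90 to -0.77) in THP-1, and URB2 was next to NLE1 in THP-1, at -1.81 (-2.02 to -1.60), beside -0.67 (-0.83 to -0.51) in K562. Of 13 box H/ACA snoRNP and snoRNP assembly genes, 12 were lower in THP-1, with a median of -0.60, and 7 in K562, with a median of -0.06. NHP2, a core protein of that particle, was lower by 3.03-fold in THP-1, at -1.60 (-1.78 to -1.42). The RNA exosome and trimming list was lower in 9 of 15 genes in THP-1, with a median of -0.13, and in 6 of 15 in K562, with a median of 0.16. EXOSC5 and EXOSC2, of the exosome core, had log2 ratios of -1.33 (-1.70 to -0.97) and -1.10 (-1.27 to -0.93) in THP-1.

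The Pol I subunits and promoter factors outside the 36 had medians near 0. Of these 13 genes, which include subunits common to the 3 nuclear polymerases, 7 were lower in THP-1, with a median of -0.06, and 4 in K562, with a median of 0.10. POLR1E, a subunit particular to Pol I, had 48.7 CPM without and 30.3 with periplocin in K562, and 66.8 without and 22.2 with it in THP-1, with log2 ratios of -0.70 (-0.86 to -0.53) and -1.58 (-1.74 to -1.42). Its dimer partner POLR1G had 11.3 CPM without and 12.2 with periplocin in K562, and 9.26 without and 4.12 with it in THP-1, with log2 ratios of 0.10 (-0.19 to 0.40) and -1.15 (-1.57 to -0.76). These 2 were the ones past 2-fold lower in THP-1.

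**Figure D4:**
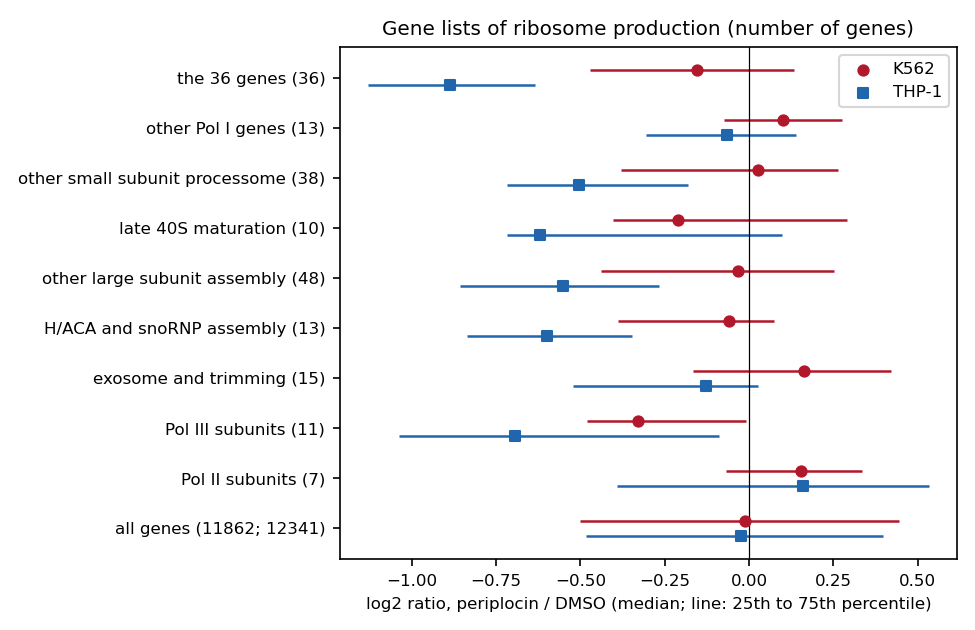
Median log2 ratio of periplocin to DMSO (points) with the 25th to 75th percentile (lines) for the 36 genes, 8 further gene lists and all genes, in K562 (red circles) and THP-1 (blue squares), with the number of genes in brackets and, for all genes, the numbers in K562 and THP-1. In THP-1 the 36 genes have the lowest median, -0.89, and the medians of Pol III subunits, late small subunit factors and snoRNP genes lie between -0.69 and -0.60.

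RNA polymerase III makes the remaining ribosomal RNA and the transfer RNAs, and 9 of 11 subunits particular to it were lower in THP-1, with a median of -0.69, and 8 of 11 in K562, with a median of -0.33. POLR3G had 7.90 CPM in DMSO and 2.54 in periplocin in THP-1, with a log2 ratio of -1.62 (-2.14 to -1.14). RNA polymerase II subunits gave a mixed picture, with 3 of 7 lower in each line and medians of 0.15 in K562 and 0.16 in THP-1. POLR2A, its largest subunit, had log2 ratios of 0.41 (0.34 to 0.48) and 0.50 (0.44 to 0.56), higher with periplocin in both lines. POLR2B, the second largest, had -0.13 (-0.19 to -0.07) in K562 and 0.57 (0.51 to 0.63) in THP-1. POLR2C and POLR2D were higher in K562, at 0.77 and 0.26, and lower in THP-1, at -0.22 and -0.56. POLR2G was at -0.005 (-0.13 to 0.12) in K562 and 0.16 (0.01 to 0.31) in THP-1, and POLR2J at 0.15 (-0.01 to 0.32) and 0.73 (0.56 to 0.90). POLR2I was lower in both lines, at -0.68 (-1.11 to -0.27) and -1.41 (-2.04 to -0.85).

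Among textbook regulators of Pol I output, MYC was lower in both lines. It had 325 CPM without and 174 with periplocin in K562, and 286 without and 57.8 with it in THP-1, and was 1.88-fold lower in K562, at -0.91 (-0.97 to -0.84), and 4.90-fold lower in THP-1, at -2.29 (-2.39 to -2.20). The lower MYC level stood beside the lower median of the 36 genes in THP-1, and its part in it was not tested. MAX, its partner, had log2 ratios of -0.06 (-0.18 to 0.05) and -0.15 (-0.28 to -0.02). TSC1 and TSC2 form the complex that restrains mTOR, and TSC1 was higher in K562, at 1.41 (1.31 to 1.52), and in THP-1, at 0.29 (0.19 to 0.40). TSC2 had 0.21 (0.11 to 0.31) and -0.07 (-0.18 to 0.04), MTOR 0.21 (0.14 to 0.28) and -0.07 (-0.15 to 0.003), and RPTOR, a subunit of the mTOR complex that promotes ribosome production, -0.58 (-0.70 to -0.46) and -0.22 (-0.34 to -0.10). RB1, which can restrain UBTF, had -0.30 (-0.39 to -0.20) in K562 and 0.24 (0.16 to 0.31) in THP-1, and MAF1, a repressor of Pol III, 0.05 (-0.05 to 0.16) and -0.22 (-0.32 to -0.11).

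Features of the gene models were compared with the responses. In GENCODE release 29, 8 of the 36 genes carry 32 small nucleolar RNA genes within them, with 8 in TAF1D, 6 in GNL3, 5 in NOP56, 4 in NOP58, 3 each in NCL and WDR43, 2 in PPAN and 1 in POLR1C. The median log2 ratio of these 8 was -0.21 in K562 and -0.76 in THP-1, and that of the other 28 was -0.15 and -0.92. Exons of 15 genes overlap those of a protein-coding gene on the same strand or of a gene on the other strand. Small RNA genes and non-coding genes on the same strand were left out of this search. The library kit does not mark strand, so the counts of the 15 can hold reads of the neighbor. They are POLR1C, UBTF, TAF1D, NOP2, NOP14, NOP16, PES1, WDR12, RRP12, HEATR1, RRS1, PNO1, GNL3, PPAN and MYBBP1A. Of the 21 without such an overlap, 12 were lower in K562 and 20 in THP-1, with medians of -0.14 and -0.92. PPAN shares exons with the readthrough gene PPAN-P2RY11, and NPM1 has 45 named pseudogenes, so how the counting divided their reads is uncertain.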

How the data were processed

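RNA of 4 libraries was analysed, 1 per condition. Per the labels, poly-A RNA was made into libraries with the NEBNext Ultra kit and sequenced on an Illumina instrument, whereas the methods name the T7 platform. The submitters' processing notes name HISAT2, StringTie 1.3.1 and hg38. The authors deposited an expected count per gene and library, which need not be whole (87.4% to 88.3% of values were), without normalization. Counts were rounded. Each pair of libraries was scaled by TMM (edgeR 4.0.16, R 4.3.3), and log2 ratios used a prior count of 0.5, with exact (Clopper-Pearson) 95% intervals. These cover counting error only, and divided or amplified reads make them too narrow. Genes that averaged 1 CPM or more in the pair were compared. The quasi-likelihood fit took genes reaching 10 counts in 2 or more libraries, and its common biological coefficient of variation was 0.317. As an alternative, DESeq2 1.42.0 was run and gave no adjusted p for 1844 genes. The differences between lines have normal 95% intervals from the counts. Gene models were from GENCODE release 29, and lengths are those of the longest principal coding transcript. The genes and lists were chosen with earlier results of these data known. All 36 genes are named. Values in the 4 libraries are given for Pol I genes, genes past 2-fold, the 10 largest ratios per line and the 3 nearest to no change. In other lists the 2 largest changes in each direction past 2-fold are named, and all genes of lists of up to 8, except 1 gene that is not reported here. Methods were tested on simulated data. Python 3.11.15 with pandas 2.3.3, scipy 1.17.1 and matplotlib 3.10.9 was used.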

Additional observations from a re-analysis of the deposited data

Results flagged for a closer look

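In 14 genes the ratio of periplocin to DMSO went opposite ways in the lines, each by more than counting error, among the 36 genes and the other genes named. The difference was not tested over replicates, since each condition has 1 library. Of the 10779 genes compared in both lines, 19.5% were above 0 in K562 and below 0 in THP-1, at any size. The reverse was found in 18.9%. Opposite ratios beyond counting error were not counted over all genes. Genes of the other lists that are not named were left out of this search. Some of them also went opposite ways by more than counting error, so the 14 do not compare the 36 with the rest of the pathway. The values that follow are log2 ratios, THP-1 minus K562. Of the 36, 9 genes were higher in K562 and lower in THP-1, with differences of -1.54 for LYAR, -1.53 for NOLC1, -1.37 for NOP2, -1.14 for NCL, -0.98 for TAF1D, -0.87 for NOP14, -0.76 for RRP1B, -0.63 for NPM1 and -0.52 for RRN3. The other 5 were RCL1 at -2.34, POLR2C at -0.99 and POLR2D at -0.81, higher in K562 and lower in THP-1, and RB1 at 0.53 and POLR2B at 0.70, lower in K562 and higher in THP-1.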

How the results depend on the processing

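Other scalings (DESeq2 size factors, total counts with and without mitochondrially encoded genes, TMM over all libraries), a prior count of 2, no filter and a filter at 5 CPM were tried. Under each scaling, 24 of the 36 genes were lower in K562 and 35 in THP-1. Over all of these, the count past 1.5-fold lower in K562 ran from 5 to 8, that past 2-fold lower in THP-1 from 13 to 14, and the medians from -0.20 to -0.13 and from -0.92 to -0.88. With total counts the median of THP-1 DMSO against K562 DMSO was -0.27 in place of -0.15. The intervals exclude no change for 30 genes in K562 and 35 in THP-1 by counting error. Over all genes in K562, the intervals lay below 0 for 4656 and above 0 for 4531 of 11862. In THP-1 they lay below 0 for 4850 and above 0 for 4628 of 12341. With an assumed dispersion between replicates of 0.01, no change was excluded for 13 of the 36 in K562 and 30 in THP-1. With 0.04 it was excluded for 4 in K562 and 23 in THP-1. These last counts were not made over all genes. Both assumed dispersions lie below that of the joint fit, the square of its common coefficient of variation of 0.317. That fit includes the disagreement of the lines, and no such count was made at its dispersion. Treatments were compared within lines in the joint fit of all 4 libraries. No replicate block could be fitted and no replicate left out, because each condition has 1 library.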
